A study of Homo sapiens and Mus musculus with 24 samples.

Results

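Some genes were transcribed in 1 of a pair of MCF10A lines and were close to silent in the other. MCF10A is a human breast epithelial line that does not form tumours. The parental line was compared with a knock-in line, called KI, that carries the PIK3CA H1047R change on 1 allele. PIK3CA encodes the catalytic subunit of phosphoinositide 3-kinase, and this change raises its activity. The genes were chosen by their mean level in the 3 parental DMSO and the 3 KI DMSO libraries, in CPM, the read pairs of a gene scaled to 1e6 pairs assigned in its library. A gene was selected when it had at least 2 CPM in 1 line and at most 0.25 CPM in the other, was autosomal and had a protein-coding transcript. This left 17 of 18755 autosomal protein-coding genes, of which 13 were on in parental cells only and 4 in KI cells only. They lie on 9 chromosomes, with 4 on chromosome 19, 3 each on chromosomes 2 and 5, and 2 on chromosome 3.

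The 12 libraries form 4 groups of 3: parental cells with wildtype PIK3CA in DMSO or BYL719, and KI cells in DMSO or BYL719. BYL719 (alpelisib) inhibits the alpha form of phosphoinositide 3-kinase and was given at 1 uM; DMSO is its solvent control, and the labels give 4 hours for all 12 libraries. Both lines came from a commercial supplier as an isogenic pair. The labels do not tell whether the KI line descends from a single clone, so the allele and any other difference between the lines cannot be told apart. No label says that replicates were separate cultures, so p-values measure only the spread between these libraries. Each library held 120177015 to 162755457 assigned pairs. KI DMSO replicate 2 stood apart from the other KI DMSO libraries, at 31.2 on the second principal component of all genes against 6.45 and 9.18, and KI BYL719 replicate 3 stood apart for a few matrix genes given below with SPARC. PIK3CA itself was at 57.8 ± 1.69 CPM in parental DMSO and 40.2 ± 5.90 in KI DMSO (SD, n = 3). With BYL719 it was at 69.0 ± 2.81 CPM in parental and 70.5 ± 1.55 in KI cells. The gene sums do not show which allele was read. All 17 mammary basal epithelial markers reached at least 1 CPM in some group, and their summed level was 18546 to 18907 CPM in parental DMSO and 15429 to 16928 in KI DMSO. Under BYL719, 12 of the 17 were lower and 1 was higher in KI cells (median log2 difference -0.26, by the edgeR test described below), where 15.3% and 17.9% of all genes were.

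Cells usually keep unused genes shut through chromatin. DNA methylation at CG pairs, histone marks set by Polycomb complexes and by H3K9 methyltransferases, or the lack of an activating factor can each hold a gene off through many divisions. Promoters rich in CG pairs (CpG islands) are mostly unmethylated, and when such an island does become methylated the gene tends to stay silent. Cell lines can therefore carry a fixed on or off state from cell to cell, and sublines of the same line can differ in it.

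Such genes were rare. In DMSO, 10943 autosomal coding genes (58.3%) were at or above 2 CPM in both lines and 5671 were at or below 0.25 CPM in both. The 13 genes made up 0.116% of the 11170 genes on in parental cells, and the 4 genes 0.0361% of the 11080 genes on in KI cells. Near the upper limit, ONECUT3 (2.05 CPM in parental cells) and ZNF229 (2.31) lay just inside, while ZNF569 (1.94 CPM, against 0.00513 in KI cells) and CD86 (1.76) lay just outside. Near the lower limit, SPARC (0.148 CPM in KI cells) and FLNC (0.145) lay inside, and BLNK (0.263) and AOC1 (0.305) outside. Among genes on in KI cells, ATOH8 and SFTPB were nearest to both limits from inside; PTGFR (1.58 CPM in KI cells) and HCLS1 (1.2) fell short of the upper limit, and CXCL1 (0.377 CPM in parental cells) and PDE7B (0.388) passed the lower one. These DMSO values chose the genes and are a description; no test was made on them.

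**Figure D1:**
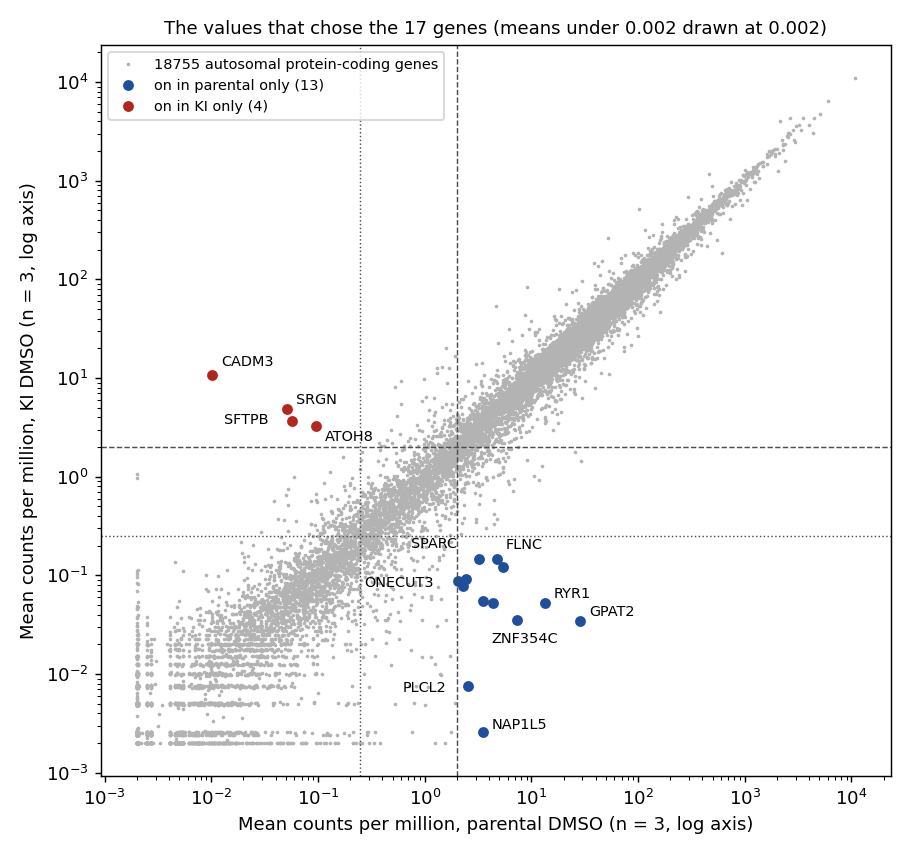
Mean CPM of 18755 autosomal protein-coding genes in parental DMSO (x axis) and KI DMSO (y axis), both on log axes with n = 3; dashed lines mark 2 CPM and dotted lines 0.25 CPM. The 13 genes on in parental cells only sit at the lower right, with GPAT2 farthest right at 28.6 CPM, and the 4 genes on in KI cells only at the upper left, led by CADM3 at 10.8 CPM.

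The promoter sequences of 6 of the genes are shown because they include the lowest (SFTPB) and the highest (PLCL2) ratio of observed to expected CG pairs among the 15 genes with a promoter, and the only 2 members within 1 Mb of each other, SFTPB and ATOH8. Each line gives the 250 bases before the RefSeq start (build GRCh38.p14), read 5′ to 3′ on the strand of the gene, with CG pairs in capitals. RefSeq promoters were matched for 15 of the 17 genes; SRGN and ONECUT3 had no entry.
PLCL2, chr3:16884705-16884954, plus strand: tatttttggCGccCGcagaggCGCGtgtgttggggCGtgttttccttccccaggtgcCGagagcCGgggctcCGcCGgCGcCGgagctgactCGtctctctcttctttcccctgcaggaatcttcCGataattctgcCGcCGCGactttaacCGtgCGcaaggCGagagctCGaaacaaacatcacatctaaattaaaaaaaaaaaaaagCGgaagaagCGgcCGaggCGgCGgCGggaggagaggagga
ZNF354C, chr5:179060123-179060372, plus strand: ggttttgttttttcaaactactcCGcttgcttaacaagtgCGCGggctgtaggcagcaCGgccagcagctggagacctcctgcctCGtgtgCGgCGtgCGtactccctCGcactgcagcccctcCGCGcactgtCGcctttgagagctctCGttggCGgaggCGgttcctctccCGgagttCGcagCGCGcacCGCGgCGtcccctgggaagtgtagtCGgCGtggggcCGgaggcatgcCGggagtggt
NAP1L5, chr4:88697830-88698079, minus strand: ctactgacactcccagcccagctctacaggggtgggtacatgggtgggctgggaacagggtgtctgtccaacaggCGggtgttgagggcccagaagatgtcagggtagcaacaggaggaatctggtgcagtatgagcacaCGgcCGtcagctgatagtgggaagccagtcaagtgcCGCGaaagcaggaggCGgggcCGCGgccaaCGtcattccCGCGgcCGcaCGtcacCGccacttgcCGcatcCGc
CADM3, chr1:159171365-159171614, plus strand: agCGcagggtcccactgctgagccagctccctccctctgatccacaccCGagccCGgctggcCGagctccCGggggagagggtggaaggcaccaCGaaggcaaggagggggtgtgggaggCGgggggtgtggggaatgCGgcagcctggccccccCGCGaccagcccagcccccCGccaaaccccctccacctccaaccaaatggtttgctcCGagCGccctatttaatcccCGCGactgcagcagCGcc
ATOH8, chr2:85753741-85753990, plus strand: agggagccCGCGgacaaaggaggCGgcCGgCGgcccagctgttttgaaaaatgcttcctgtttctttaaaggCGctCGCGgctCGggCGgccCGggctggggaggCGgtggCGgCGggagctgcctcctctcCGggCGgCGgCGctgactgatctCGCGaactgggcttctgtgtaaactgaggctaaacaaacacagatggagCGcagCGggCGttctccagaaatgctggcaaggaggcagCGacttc
SFTPB, chr2:85668742-85668991, minus strand: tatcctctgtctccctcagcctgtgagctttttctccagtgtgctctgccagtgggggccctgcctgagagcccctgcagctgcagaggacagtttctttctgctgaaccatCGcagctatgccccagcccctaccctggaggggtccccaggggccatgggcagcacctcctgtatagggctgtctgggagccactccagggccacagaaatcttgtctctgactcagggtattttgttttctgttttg
The SFTPB stretch holds 1 CG pair and that of ATOH8 24, although the genes share a direction and lie 82.6 kb apart. PLCL2 and ZNF354C hold 26 each, and NAP1L5 and CADM3 16 each.

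Among the genes on in parental cells were enzymes. GPAT2 is a member of the glycerol-3-phosphate acyltransferase family, best known from the testis, and it was the most abundant of the 17. Its level was 29.4, 28.5 and 28.0 CPM in parental DMSO and 28.8, 28.5 and 27.7 in parental BYL719. In KI cells it was 0.0547, 0 and 0.0487 CPM in DMSO and 0.00734, 0.0716 and 0.0333 in BYL719. Every parental library was high and every KI library close to 0, whichever agent was given. GPAT2 lies at chr2:96021946-96039451 on the minus strand, and its pseudogenes GPAT2P1 and GPAT2P2 took at most 0.0112 CPM in any group mean. BDH1, the mitochondrial enzyme that interconverts the ketone bodies, was at 5.39 ± 0.0253 CPM in parental DMSO and 0.121 ± 0.0172 in KI DMSO (SD, n = 3). ARSI, a sulfatase, was at 4.34 ± 0.135 and 0.0526 ± 0.00633 CPM in the same groups.

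A calcium channel and a muscle filamin shared the pattern. RYR1, the calcium release channel of skeletal muscle (chr19:38433699-38587564, plus strand), was at 14.1, 13.0 and 12.7 CPM in parental DMSO and 14.4, 14.9 and 13.2 in parental BYL719. The KI libraries held 0.0874, 0.0381 and 0.0308 CPM in DMSO and 0.0220, 0.0152 and 0 in BYL719. Nearly all of the parental pairs (91.7%) were assigned to a full-length coding transcript that begins 8 bases from the RefSeq start. FLNC, which crosslinks actin in muscle, was at 4.73 ± 0.647 CPM in parental DMSO and 0.145 ± 0.0195 in KI DMSO. None of the 3 tested skeletal muscle markers of a list of 12 differed between the lines under BYL719, and the summed level of the 12 was 4.25 to 4.71 CPM in parental DMSO and 3.25 to 5.19 in KI DMSO.

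Transcription factors made up 4 of the 13. ZNF354C, ZNF558 and ZNF229 are C2H2 zinc finger genes, most of whose products carry a KRAB domain and repress their targets. ZNF354C was at 7.59, 7.42 and 7.02 CPM in parental DMSO and 7.15, 6.95 and 7.54 in parental BYL719, against 0.0146, 0.0458 and 0.0462 in KI DMSO and 0.0440, 0.0381 and 0.00701 in KI BYL719. The groups of the lines do not approach each other. ZNF558 was at 3.55 ± 0.0788 CPM in parental DMSO and 0.0554 ± 0.0213 in KI DMSO, and ZNF229 at 2.31 ± 0.0582 and 0.0775 ± 0.0148. ONECUT3, a cut homeodomain factor known from the nervous system and pancreas, was at 2.24, 1.98 and 1.93 CPM in parental DMSO, so that its mean but not every library passed 2 CPM. In parental BYL719 it was at 1.5, 1.47 and 1.41 CPM, below all 3 DMSO libraries.

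The others act in signalling, transport, chromatin or the matrix. PLCL2 is a phospholipase C relative that has lost its catalytic activity; it was at 2.52 ± 0.0568 CPM in parental DMSO and 0.00751 ± 0.00763 in KI DMSO. FEZ1, an adaptor that links cargo to kinesin in neurons, was at 2.46 ± 0.190 and 0.0926 ± 0.0325 CPM. Part of what remained of FEZ1 in KI cells was a retained-intron transcript, with 18 pairs in parental DMSO and 21 in KI DMSO over 3 libraries each, while its main coding transcript went from 749 to 3 pairs. NAP1L5 is an imprinted, intronless relative of the nucleosome assembly proteins. It was at 3.29, 3.47 and 3.74 CPM in parental DMSO, and a single pair was assigned to it in the 398390427 pairs of the 3 KI DMSO libraries (0.00251 CPM, with an exact Poisson 95% interval of 6.36e-05 to 0.0140 that covers counting error only). In KI BYL719 it had 6 pairs.

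SPARC, a secreted protein that binds collagen, was the exception among the 13. Its level was 3.29, 3.01 and 3.44 CPM in parental DMSO and 3.10, 2.80 and 3.05 in parental BYL719, and 0.160, 0.198 and 0.0847 in KI DMSO. In KI BYL719 it was at 0.198, 0.168 and 1.83 CPM. Replicate 3 of that group alone was high, at 61.3% of the parental BYL719 mean, against 6.13% for the mean of replicates 1 and 2. The other 12 genes stayed at 0 to 7.12% of their parental mean in that library, so none came near its parental level. For the mean of replicates 1 and 2 their highest share was 5.00%. Smaller moves cannot be told at such counts: FEZ1 had 24 pairs against 11 and 8, and ZNF354C 1 against 6 and 5. Of 12245 coding genes compared there, 10 were over 2-fold above the mean of the other KI BYL719 libraries, and SPARC ranked 5 among them. COL1A2 (4.33 CPM against 0.154 and 0.0686), COL3A1 (2.12 against 0.103 and 0.0305), GREM1 (1.09 against 0.0514 and 0.0609) and MMP1 (3.18 against 0.580 and 0.434) were also among the 10; these genes were picked out after their values were seen. COL1A2 and COL3A1 belong to a list of 12 fibroblast markers, of which 9 were tested between the lines under BYL719. Of these, 4 (44.4%) were called higher in KI cells and 0 lower, where 17.9% and 15.3% of all genes were. None of the 12 was at 0 in all libraries. The summed list was at 98.3 to 101 CPM in parental BYL719 and 230.3 to 259 in KI BYL719. DCN alone was at 10.0 to 10.8 CPM in parental BYL719 and 123 to 148 in KI BYL719. Without DCN the list was at 88.2 to 90.7 CPM in parental BYL719 and 107 to 112 in KI BYL719. Within KI BYL719 the sum was 230.3, 256.7 and 259 CPM in replicates 1, 2 and 3, and 107, 109 and 112 without DCN, so that replicate 3 was the highest by little. Of the 12 markers 8 were highest in replicate 3, and 4 (COL1A2, COL3A1, POSTN and PRRX1) were there over 2-fold above both other libraries. Whether that library holds RNA of other cells was not tested.

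The 4 genes on in KI cells only are best known from tissues other than breast. CADM3, an adhesion molecule of neurons (chr1:159171609-159203313, plus strand), was at 10.8, 10.7 and 11.0 CPM in KI DMSO and 10.7, 12.4 and 11.6 in KI BYL719. In parental cells it was at 0.0141, 0 and 0.0163 CPM in DMSO and 0.0166, 0.0149 and 0.0299 in BYL719. No other gene of the 4 differed so widely. SRGN encodes serglycin, the proteoglycan of secretory granules in blood cells, and was at 0.0509 ± 0.0145 CPM in parental DMSO and 4.80 ± 0.450 in KI DMSO. Of 15 haematopoietic markers 6 were tested under BYL719. In KI cells 2 (33.3%) were called higher and 2 lower, beside 17.9% and 15.3% of all genes. The summed level of the 15 was 35.3 to 36.2 CPM in parental DMSO and 28.2 to 30.9 in KI DMSO.

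SFTPB and ATOH8 were on together. SFTPB encodes surfactant protein B of the lung, and ATOH8 a basic helix-loop-helix factor that acts in development. SFTPB was at 3.14, 4.09 and 3.90 CPM in KI DMSO and 0.0552, 0.0673 and 0.0493 in parental DMSO. ATOH8 was at 3.20, 3.33 and 3.16 CPM in KI DMSO and 0.0369, 0.133 and 0.114 in parental DMSO. Off did not mean absent: 24 pairs of SFTPB and 38 of ATOH8 were assigned over the 3 parental DMSO libraries. With BYL719, ATOH8 was at 4.26, 5.07 and 4.43 CPM in KI cells, above all 3 DMSO libraries.

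Per transcript length the order changed. On the deposited TPM scale, which takes transcript length into account, the levels in the line where each gene was on in DMSO ran from 0.336 ± 0.0213 for ONECUT3 to 18.2 ± 0.825 for GPAT2 (SD, n = 3). RYR1 followed at 7.80 ± 0.748, then SRGN at 6.65 ± 0.184, BDH1 at 5.49 ± 0.245 and CADM3 at 4.14 ± 0.284. RYR1 and SRGN, and SRGN and BDH1, were further apart than their spread. With the same limits applied to TPM, 11 genes were on in parental cells only, of which 7 were among the 13; FLNC and PLCL2, whose main transcripts are 9188 and 4161 bases long, were among the 6 not selected there. In KI cells 5 genes met the limits on that scale, 3 of them among the 4.

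**Figure D2:**
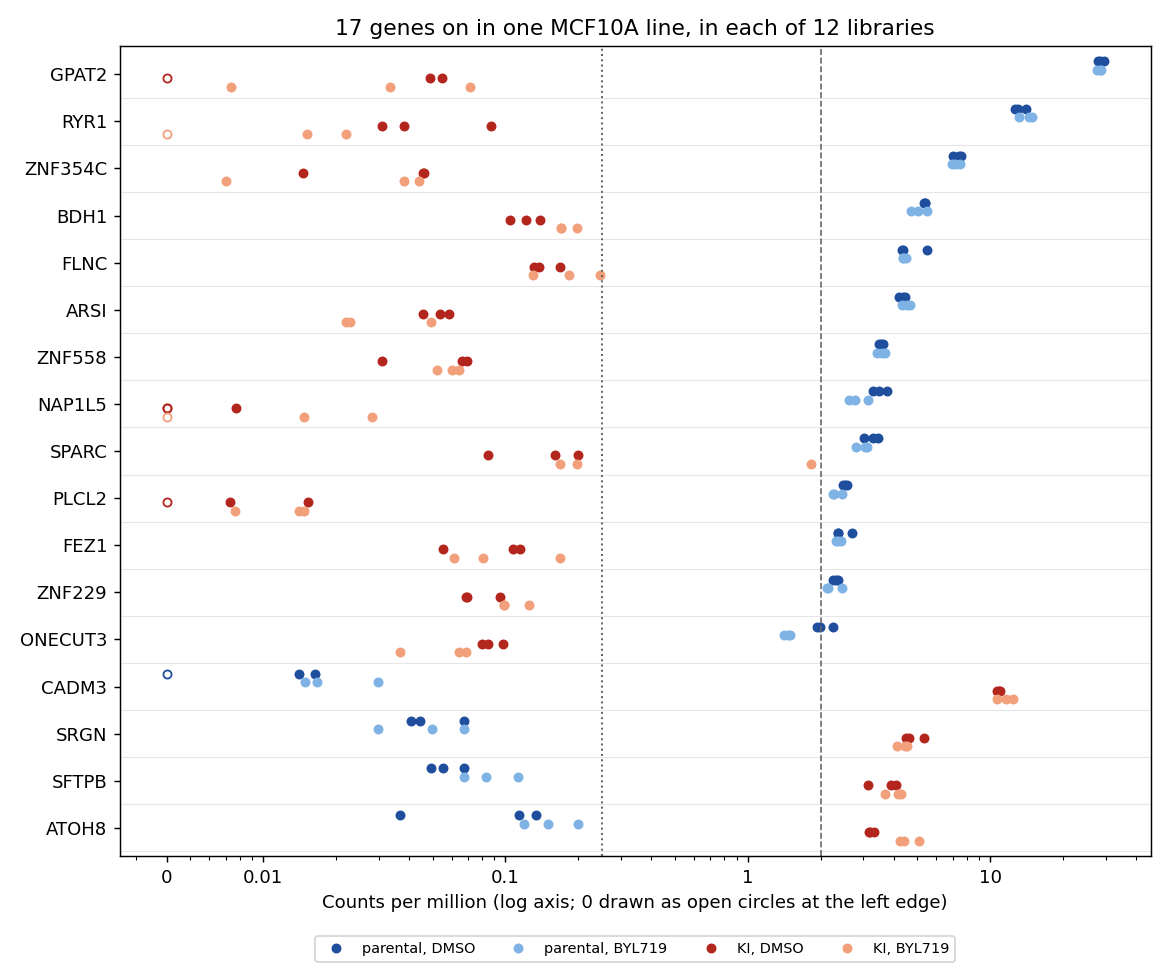
CPM of the 17 genes in each of 12 libraries (log axis, 0 drawn as open circles at the left edge); colours mark the 4 groups, and the dotted and dashed lines 0.25 and 2 CPM. Each gene forms a high and a low cloud split by line, and the exception is SPARC in KI BYL719 replicate 3 at 1.83 CPM.

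The 6 BYL719 libraries had no part in choosing the genes, so the difference between the lines was tested there with edgeR's quasi-likelihood test, adjusted by Benjamini-Hochberg over 20336 genes. Of the 13 genes on in parental cells, 12 were lower in KI cells at an adjusted p under 0.05, where 15.3% of all genes tested were. All 4 genes on in KI cells were higher, where 17.9% of all genes tested were. The genes were picked on the same difference in DMSO, so these counts show that it recurred in other libraries and are no independent evidence on the set. Adjusted p-values ran from 2.09e-09 to 8.89e-07 for the 12 and from 7.30e-10 to 2.27e-08 for the 4. The 2 lines' BYL719 libraries did not overlap for any of the 17 genes, which were picked on this difference. How often they did not overlap over all genes was not counted, so this describes the members only.

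RYR1 and GPAT2 differed most, at a log2 difference of -10.05 (SE 0.213) and -9.53 (SE 0.175). ZNF354C followed at -7.87 (SE 0.218), and NAP1L5 (-7.48, SE 0.321), PLCL2 (-7.44, SE 0.221) and ARSI (-7.09, SE 0.192) were close behind. The rest lay between -5.88 for ZNF558 and -4.34 for ZNF229. For genes with a handful of pairs in KI cells, such as NAP1L5, these fitted values depend on the prior count of the model. CADM3 was higher by 9.09 (SE 0.158), SRGN by 6.48 (SE 0.184), SFTPB by 5.55 (SE 0.168) and ATOH8 by 4.91 (SE 0.166). Over all 20336 genes the median log2 difference was 0.014, and 2.40% of genes were called higher and 3.33% lower by at least 2-fold.

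SPARC did not pass: its log2 difference was -1.98 (SE 0.954, edgeR adjusted p = 0.205). Without KI BYL719 replicate 3 the difference was -4.0 and edgeR gave an adjusted p of 2.54e-07. With all 12 libraries in the fit, which includes those that chose the gene, it was -1.99 with an adjusted p of 0.0420. The limits of 2 and 0.25 CPM were met again under BYL719 by 11 of the 13 genes and by 4 of 4; SPARC was too high in KI cells (0.732 CPM) and ONECUT3 too low in parental cells (1.46 CPM). The level that remained in the off line was 0.0733% (NAP1L5) to 4.55% (SPARC) of the on line in DMSO and 0.0877% (RYR1) to 24.5% (SPARC) in BYL719.

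The inhibitor changed none of the 17 genes at an adjusted p under 0.05 in the line where it was on. BYL719 was compared with DMSO within each line, in an edgeR fit of all 12 libraries with 21079 genes tested; the DMSO libraries are those that chose the genes. Of the 13 genes in parental cells, 0 rose and 0 fell, where 0.844% of all genes rose and 0.588% fell. Of the 4 genes in KI cells, 0 rose and 0 fell, where 15.1% of all genes rose and 13.2% fell. At an unadjusted p under 0.05, 1 gene was lower in parental cells, ONECUT3, and 1 was higher in KI cells, ATOH8; DESeq2 called 1 in each case. ONECUT3 differed by -0.50 on the log2 scale (SE 0.124, edgeR adjusted p = 0.0781; DESeq2 adjusted p = 0.0142). ATOH8 differed by 0.50 (SE 0.180, edgeR adjusted p = 0.0570; DESeq2 adjusted p = 0.000948).

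Whether these 2 genes were called depended on single libraries, while the size changed little: leaving out each library gave -0.53 to -0.44 for ONECUT3 and 0.42 to 0.52 for ATOH8. Without KI DMSO replicate 2 the same 13 and 4 genes met the limits, and both edgeR calls were made: ONECUT3 at an adjusted p of 0.0158 and ATOH8 at 0.0380. Without KI BYL719 replicate 1 ONECUT3 was at 0.0307, and without parental DMSO replicate 1 ATOH8 was at 0.0120. The other members' log2 differences with BYL719 lay between -0.31 (NAP1L5) and 0.088 (RYR1) in parental cells and between -0.14 (SRGN) and 0.12 (SFTPB) in KI cells. In the line where it was off, RYR1 fell by 2.04 on the log2 scale (edgeR adjusted p = 0.0263), which rests on 21 pairs in KI DMSO and 5 in KI BYL719.

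Few neighbours on the genome changed as much as the members. The flanking genes were the nearest tested coding genes on each side that were not themselves among the 17, and distances are between annotated gene starts, the outermost of all transcripts. For 5 members the main transcript starts over 10 kb from there. Of the 26 flanks of the 13 genes, 7 (26.9%) were lower in KI cells under BYL719 and 2 were higher, beside 15.3% and 17.9% of all genes. Without parental BYL719 replicate 3, and also with all 12 libraries in the fit, 4 were lower. Only ZNF879 of these was lower by at least 2-fold. Of the 6 flanks of the 4 genes, 2 were higher and 1 lower, with ACKR1 the only one past 2-fold. Within 500 kb of the 13 genes 36 of 169 tested genes were lower and 29 higher; within 500 kb of the 4 genes 11 of 33 were higher and 3 lower.

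ZNF879, another zinc finger gene, lies 36.7 kb before ZNF354C on chromosome 5 (chr5:179023752-179035064, plus strand) and was on in parental cells too. It was at 0.977, 1.04 and 1.04 CPM in parental DMSO and 0.882, 1.01 and 1.13 in parental BYL719. Over the 3 KI DMSO libraries 2 pairs were assigned to it, and 2 over the KI BYL719 libraries. The log2 difference under BYL719 was -7.41 (SE 0.381, edgeR adjusted p = 3.74e-07). ZNF354B, a paralog of ZNF354C farther out on the same side, stayed on in both lines, at 11.5 CPM in parental BYL719 and 9.67 in KI BYL719, and was lower by 0.22 on the log2 scale (SE 0.0717, adjusted p = 0.0421). RUFY1 on the other side of ZNF354C was at 51.2 and 48.9 CPM in the same groups (adjusted p = 0.449).

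ACKR1, a chemokine-binding receptor of red cells and venous endothelium, starts 31.7 kb after CADM3 and its annotated span overlaps the end of CADM3 by 7 bases on the same strand. It was at 0 in all 3 parental DMSO libraries and at 0.852, 1.18 and 0.878 CPM in KI DMSO. In BYL719 it had 1 pair over the parental libraries, and 0.829, 0.785 and 0.722 CPM in KI cells (log2 7.82, SE 0.441, edgeR adjusted p = 7.38e-07). Its level was 8.95% of that of CADM3 in KI DMSO; whether those pairs came from a separate transcript was not tested. CADM3-AS1, annotated on the other strand, was at 0.119 CPM in KI DMSO and 0.00146 in parental DMSO. AIM2, 24.5 kb before CADM3, was at 0.0972 CPM in parental BYL719 and 0.120 in KI BYL719 (adjusted p = 0.644).

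SFTPB and ATOH8 were the only 2 members within 1 Mb of each other. GNLY lies between them and was at 0.00886 CPM in parental DMSO and 0.10 in KI DMSO, too low for the test. C2orf68 on 1 side was not called (log2 -0.12, adjusted p = 0.145), and ST3GAL5 on the other was higher by 0.46 (SE 0.0894, adjusted p = 0.00282). ARSI and SPARC are 1348 kb apart on chromosome 5. On chromosome 3, BDH1 lies 18.4 Mb after PIK3CA and PLCL2 162 Mb before it.

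Several members sat beside highly expressed genes for which no difference was called under BYL719. NAP1L5 lies inside HERC3, on the opposite strand, and HERC3 was at 47.3 ± 1.36 CPM in parental BYL719 and 48.6 ± 1.81 in KI BYL719 (SD, n = 3; adjusted p = 0.215). The outermost annotated start of FEZ1 lies 0.856 kb from that of STT3A, a subunit of the oligosaccharyltransferase, but the main transcript of FEZ1 starts 95.4 kb from it. STT3A was at 240.8 and 243 CPM (adjusted p = 0.282). SRGN is followed by VPS26A, a retromer subunit, at 110.7 and 109.8 CPM (adjusted p = 0.733), and SPARC by G3BP1, a stress granule protein, at 389.6 and 383.6 CPM (adjusted p = 0.932).

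Around many members neighbours were called, with smaller differences, where 17.9% of all genes were called higher and 15.3% lower. Near FLNC, CCDC136 differed by -0.48, KCP by -1.41 and IRF5 by -0.72 on the log2 scale. TCOF1 beside ARSI differed by -0.25, RFTN1 beside PLCL2 by -0.31, FAT2 beside SPARC by -0.40, ZNF317 beside ZNF558 by -0.16 and DLG1 beside BDH1 by -0.11. HKDC1, 132 kb after SRGN, was higher by 1.21, while KIF1BP before it differed by -0.12. Others moved against the member: ATP8B3 near ONECUT3 was higher by 0.68, and SPRED3 and RASGRP4 near RYR1 by 1.02 and 1.23, RASGRP4 at only 0.132 CPM in KI BYL719. Over 5 Mb on each side the median log2 difference was between -0.077 (FEZ1) and 0.079 (NAP1L5) for all 17 genes. Such a median cannot show a shift in a smaller part of the window, which was not tested.

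**Figure D3:**
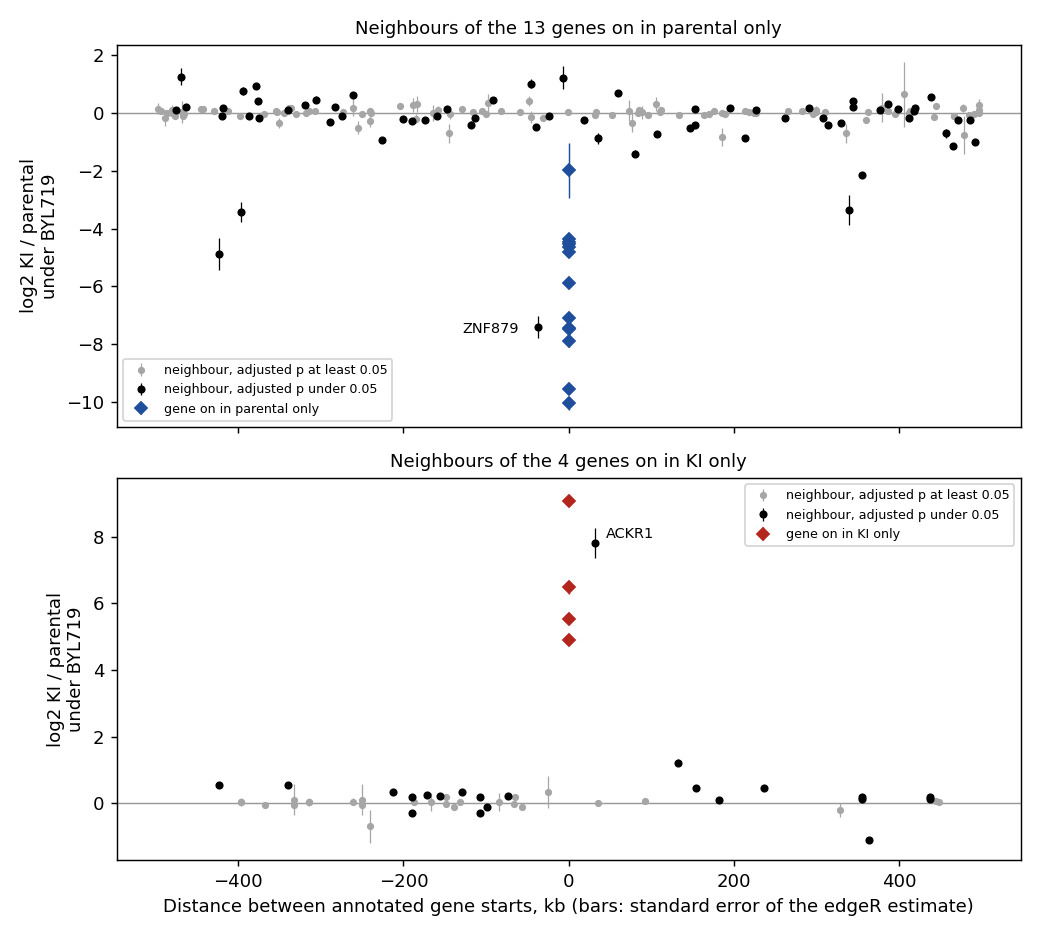
Log2 difference KI over parental under BYL719 for tested coding genes within 500 kb (y axis, bars are the SE of the edgeR estimate) against the distance between annotated gene starts in kb (x axis); diamonds at 0 are the members. Among the nearest tested genes on each side only ZNF879 (-7.41) and ACKR1 (7.82) reach the range of the members. Within 500 kb, 8 of 169 genes moved at least 2-fold the same way as a member on in parental cells. For members on in KI cells 2 of 33 genes did so. Over all coding genes tested, 3.79% were lower and 2.49% higher by at least 2-fold. Genes that moved at least 2-fold the other way were not counted.

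Promoter sequence did not set the genes apart in a single way. The ratio of observed to expected CG pairs, where the expected number comes from the C and G content, had a median of 0.718 over the 12 promoters of genes on in parental cells and 0.592 over the 3 of genes on in KI cells. Over the 11337 coding genes in the BYL719 fit with a promoter it was 0.824. A ratio of at least 0.6, a usual mark of a CpG island, was reached by 7 of 12 (58.3%), 1 of 3 and 78.6% of all. With the upper limit at 5 CPM, which leaves 4 genes on in parental cells, their median was 0.352. The window was the RefSeq one, 250 bases before to 50 after the start.

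The members spanned the whole range. PLCL2 had a ratio of 1.30, at or above that of 99.9% of promoters, followed by ZNF229 at 1.04 and ZNF354C at 1.00; ATOH8 reached 0.971. SFTPB at 0.0444, BDH1 at 0.0685 and GPAT2 at 0.156 were at the other end. For 3 of these the window is not the start most used: the transcript with most pairs starts 1349 bases away for GPAT2, 17295 for BDH1 and 538 for SFTPB, and also 9415 bases away for ZNF558 and 19261 for SPARC, where it is a retained-intron form. Over the promoters within 100 bases of the start of that transcript, the median was 0.892 for 8 genes on in parental cells and 0.782 for 2 on in KI cells. No methylation was measured here.

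**Figure D4:**
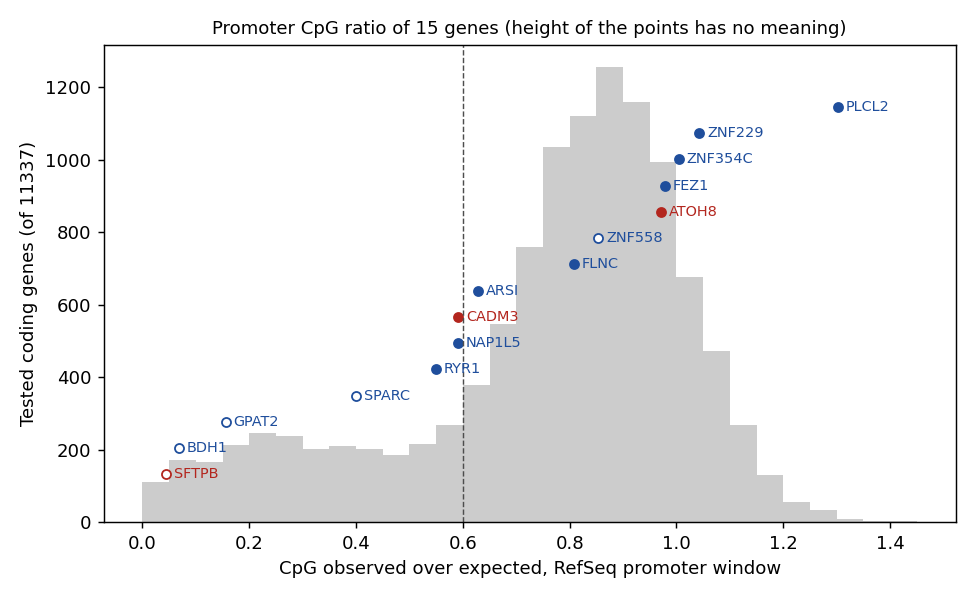
Ratio of observed to expected CG pairs in RefSeq promoters (x axis) for 15 members, drawn over the histogram of 11337 tested coding genes; open circles are genes whose main transcript starts over 100 bases away, and the dashed line is 0.6. Members range from 0.0444 for SFTPB to 1.30 for PLCL2.

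No tested gene of the machinery that keeps other genes silent differed by 2-fold between the lines. Of 66 tested genes on the lists for DNA methylation and for Polycomb and H3K9 silencing, 13 were higher and 15 lower in KI cells under BYL719, with 0 past 2-fold in either direction. These are 19.7% and 22.7%, beside 17.9% and 15.3% of all genes. The 19 DNA methylation genes split into 3 higher and 8 lower (42.1%), and the 47 Polycomb and H3K9 genes into 10 and 7. The median log2 difference of the 66 was -0.0045, beside 0.014 over all genes.

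Of the gene lists, 3 that hold a member had calls in both directions, beside 17.9% of all genes called higher and 15.3% called lower. Of 19 tested germline and cancer-testis genes, the list that holds GPAT2, 4 were higher and 2 lower in KI cells. Of 121 ion channel genes, with RYR1 among them, 18 were higher and 24 lower. The 26 tested adhesion genes of the nervous system, with CADM3, had 8 higher and 5 lower. The next lists hold no member. Of 21 tested imprinted genes, a list without NAP1L5, 3 were higher and 6 lower. Of 14 neural and glial markers 6 were tested, with 2 higher and 1 lower, and of 12 endothelial markers 9, with 3 higher and 1 lower.

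In the zinc finger family, which holds 3 members, more genes were called lower than higher in KI cells. Of 476 tested autosomal zinc finger genes, 137 (28.8%) were lower under BYL719 and 38 (7.98%) higher; of 13602 other autosomal coding genes 18.3% were lower and 22.6% higher. By at least 2-fold, 39 were lower and 1 higher. Without the 3 members, 134 of 473 were lower. On chromosome 19, which holds 219 of the 476, 87 (39.7%) were lower and 6 higher, and 29 of the 39 past 2-fold lie there. Other coding genes of chromosome 19 were lower in 18.9% and higher in 18.3%. The family was split by chromosome after its values were seen, and no test of the set was made.

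Some other zinc finger genes had the pattern of the members at lower levels. There were 36 that were lower by at least 2-fold and are not members. Of these, 8 (22.2%) were at 1 CPM or more in parental BYL719 and at most 0.25 CPM in KI BYL719. Among the 479 other autosomal coding genes that were lower by at least 2-fold and are not members, 18 (3.76%) were. ZNF569 was at 1.70, 2.24 and 1.88 CPM in parental DMSO and had 2 pairs over the KI DMSO libraries; under BYL719 it differed by -7.36 (SE 0.354, edgeR adjusted p = 2.34e-07). ZNF253 (1.74 CPM in parental DMSO against 0.0153 in KI DMSO), ZNF302 (1.42 against 0.00985), ZNF93 (1.41 against 0.0582) and ZNF880 (1.39 against 0.00999) were similar. With the upper limit at 1 CPM, 43 genes were on in parental cells only, and 11 of them (25.6%), the 3 members and 8 others, were zinc finger genes, a family that made up 3.64% of the 11786 genes on there. Of the 8 genes on in KI cells only at that limit, 0 were zinc finger genes, a family with 408 of the 11657 genes on there. At that share, 8 genes are too few to show a difference from parental cells.

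**Figure D5:**
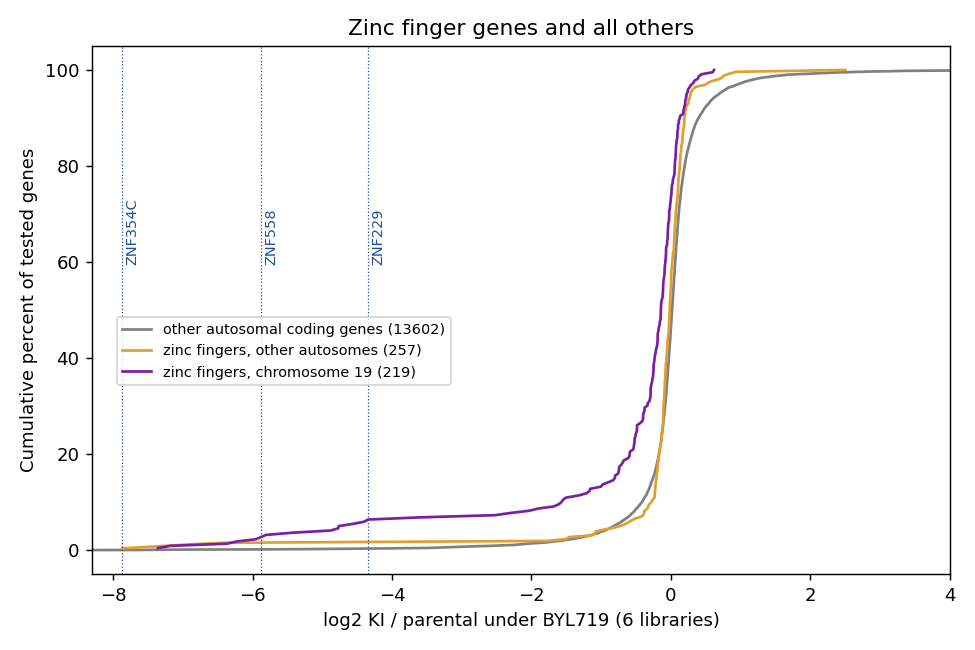
Cumulative percent of tested genes (y axis) by log2 difference KI over parental under BYL719 (x axis) for 219 zinc finger genes on chromosome 19, 257 on other autosomes and 13602 other autosomal coding genes; dotted lines mark the 3 zinc finger members. The curve for chromosome 19 lies to the left of the others, with 39.7% of its genes called lower.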

How the data were processed

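Per the submitters' processing notes, reads were trimmed with Trim Galore 0.6.1 and cutadapt and quantified with Salmon 1.2.1 on GRCh38; DESeq2 1.28.1 is also named. The deposited Salmon tables hold estimated counts (expected counts of read pairs, not whole) and TPM per transcript, the latter scaled by the authors' tool to length and library. No source used here gives the strand setting or the annotation release. The 12 libraries of mouse cells were not used.

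Expected counts were summed to 58434 genes, divided by the library sum for CPM, and rounded for tests; positions come from GENCODE v29 by gene identifier. The members and all lists were chosen with earlier results of these data known. Tests used edgeR 4.0.16 (R 4.3.3) with TMM, filterByExpr and a robust quasi-likelihood fit: the 6 BYL719 libraries by line, and all 12 libraries by group for BYL719 against DMSO. Alternatives were DESeq2 1.42.0, other scaling, filters, limits and libraries, each library left out, and a replicate block. Named genes were the members, those nearest the limits, flanking genes and list members.

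On simulated counts for the BYL719 comparison (19961 genes), 38 of 50 genes changed 1.5-fold were recovered, 44 at 2-fold and 50 at 4-fold and at 32-fold, with 12 false calls. The simulated counts had the same relative spread beyond counting noise for every gene and no outlying library. These rates therefore need not hold for the real libraries. Library totals were 120177015 to 162755457 pairs; replicates of every group differed beyond counting noise (chi-square per degree of freedom 4.31 to 150.1). Same-numbered DMSO and BYL719 libraries of parental cells deviated together (correlations 0.126 to 0.188), those of KI cells less (0.0299 to 0.115), and those of the 2 lines under BYL719 did not (-0.0357 to 0.0509). The main fits did not pair libraries by number, and the replicate block was run only as an alternative.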

Additional observations from a re-analysis of the deposited data

How the results depend on the processing

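The 12 and 4 members called between the lines under BYL719 stayed 12 to 13 and 4 under all settings run, SPARC being the gene that joined without KI BYL719 replicate 3 and with all 12 libraries. How many genes are on in 1 line depends on the limits: an upper limit of 5 CPM gave 4 in parental and 1 in KI cells, 1 CPM gave 43 and 8, and a lower limit of 0.5 CPM gave 22 and 10. Requiring every library past the limits gave 12 and 4. Without parental DMSO replicate 1 ONECUT3 gave way to ZNF569, and without KI DMSO replicate 1 BLNK joined (14 genes). Requiring 2-fold, 488 genes were higher and 677 lower, 1 flank of the 13 and 1 of the 4 were called, and 0 silencing genes in either direction. With all 12 libraries, 2411 genes were higher, 4 flanks of the 13 were lower, and 8 silencing genes were higher and 7 lower. All genes within 500 kb gave 36 and 11. A 5 Mb window gave 2 member pairs in place of 1.

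Leaving out each library moved the flanks of the 13 between 4 and 9 and the silencing genes called lower between 9 and 20, the lowest without parental BYL719 replicate 3 (4) and replicate 1 (9). It moved the members that fell with BYL719 in parental cells between 0 and 1, and those that rose in KI cells between 0 and 1. DESeq2 called 1 in each, and a fit of that line alone called 2 (ONECUT3 and NAP1L5) and 1 (ATOH8). A replicate block left 12 and 4 members called, with 3202 genes higher, 2812 lower, and 0 members called for BYL719 in either line. Zinc finger genes called lower numbered 107 to 161 over all settings, added after the data were seen, with 37 to 39 past 2-fold. Depth limits the off line: 1 to 59 pairs over 3 DMSO libraries per member give levels whose counting error is large.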

Other observations

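Outside the 17 genes, 3 others met the same DMSO limits but are not autosomal coding genes by the annotation of their transcripts. LINC01515, a long noncoding RNA on chromosome 10, was at 2.25, 2.69 and 2.45 CPM in parental DMSO and 0.00728, 0.00763 and 0.00770 in KI DMSO, and at 2.76 ± 0.151 and 0.0146 ± 0.0127 under BYL719 (SD, n = 3). GABRQ, a subunit of the GABA-A receptor on the X chromosome, was at 2.02, 2.12 and 2.06 CPM in parental DMSO and at 0 in all 3 KI DMSO libraries. AC011511.4 met the limits for KI cells through a single library, with 0.280, 11.2 and 0.224 CPM in KI DMSO and at most 0.430 in any parental DMSO library; under BYL719 its means were 0.0700 in parental and 0.154 in KI cells. The library at 11.2 CPM is KI DMSO replicate 2, the one that stood apart on the second principal component.

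Noncoding genes within 20 kb of a member followed it in some cases. AC011374.1 beside SPARC was lower in KI cells by 1.88 on the log2 scale under BYL719 (0.469 against 0.123 CPM, edgeR adjusted p = 0.000669), and AC005256.1 beside ONECUT3 by 0.85 (0.733 against 0.399 CPM, adjusted p = 0.0238). AC132008.2 beside BDH1 was at 17.6 and 16.7 CPM and was not called (adjusted p = 0.803), nor was FAM13A-AS1 near NAP1L5 (adjusted p = 0.189). FAHD2CP, whose span overlaps GPAT2, and ZNF285B near ZNF229 were not called either (edgeR adjusted p = 0.921 and 0.841). Over all genes tested, 15.3% were called lower.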
